A study of Mus musculus with 12 samples.

Results

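Fibronectin, the fibulins and the genes of the elastic fibre were followed across 12 expression arrays of OP9 stromal cells cultured with vehicle or imatinib. The set was 10 genes taken by symbol: Fn1, Fbln1, Fbln2, Fbln5, Fbn1, Eln, Mfap2, Mfap5, Lox and Loxl1. In the probe annotation, 9 of the 10 genes had a named probe, which gave 22 probes of the 45281 on the array, and all 22 were taken whether detected or not. Fbn1, which encodes fibrillin-1, was not analysed here.

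All 12 samples came from OP9, an established mouse stromal line derived from newborn calvaria of the B6C3F1 op/op strain, whose op allele inactivates the macrophage growth factor gene Csf1. OP9 cells are labelled as mesenchymal stem cells (MSCs). The arrays fell into 4 groups of 3 replicates: vehicle labelled 0 h, and imatinib, a tyrosine kinase inhibitor used against BCR-ABL-positive leukaemia, labelled 32 h, 64 h and 96 h. The imatinib concentration was not given in the sources used here, nor whether the 3 replicates were separate cultures, so the p-values measure the spread between these samples, which may be technical. The study's design text can also be read as giving vehicle at the later times. With vehicle labelled only at 0 h, drug and time in culture cannot be told apart in any comparison with vehicle. The labels place vehicle and 96 h on array label 1 and 32 h and 64 h on array label 2, so between these pairs array label and group cannot be told apart.

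The elastic fibre consists of an elastin core laid down on a scaffold of fibrillin microfibrils. Fibronectin, secreted by stromal cells and assembled through integrins, forms an early matrix on which fibrillin, fibulins and collagens are deposited. Fibulins bridge elastin, microfibrils and the cell surface, microfibril-associated glycoproteins bind fibrillin, and lysyl oxidases crosslink elastin and collagen through oxidised lysines. In bone, fibronectin and lysyl oxidase take part in building the collagen matrix laid down by osteoblasts.

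Promoter sequence was at hand in the RefSeq promoter table (build GRCm38.p6, 250 bases before to 50 after a transcript start) for 5 of the 10 genes, Fbln1, Fbln2, Fbln5, Fbn1 and Mfap2. The promoters of Fbln2 and Fbln1 are shown because these are the 2 fibulins of the set with a detected probe. Fbln2 passed tests given below and Fbln1 did not, but the difference between the genes was not tested. Capitals mark the GC box (GGGCGG on either strand), the motif bound by Sp1-type factors.
Fbln2, chr6:91212514-91212813, plus strand: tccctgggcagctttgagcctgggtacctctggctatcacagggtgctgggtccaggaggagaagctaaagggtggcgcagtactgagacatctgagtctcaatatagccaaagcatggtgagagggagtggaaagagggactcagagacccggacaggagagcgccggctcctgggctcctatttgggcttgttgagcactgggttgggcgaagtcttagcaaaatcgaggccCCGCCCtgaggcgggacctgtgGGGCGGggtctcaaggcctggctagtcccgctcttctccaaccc
Fbln1, chr15:85205758-85206057, plus strand: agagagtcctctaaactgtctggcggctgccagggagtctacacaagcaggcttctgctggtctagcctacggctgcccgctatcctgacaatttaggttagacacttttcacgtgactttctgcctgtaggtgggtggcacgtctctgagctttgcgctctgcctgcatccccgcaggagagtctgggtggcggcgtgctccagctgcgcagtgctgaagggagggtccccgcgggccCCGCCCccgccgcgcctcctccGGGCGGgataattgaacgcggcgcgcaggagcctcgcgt
Both windows hold 2 GC boxes around the start, beginning at bases -16 and 7 in Fbln2 and at bases -11 and 12 in Fbln1, counted from the transcript start. Of all 32851 promoters in the table, 35.7% hold at least 1 GC box, so holding a GC box does not set these genes apart. The share with 2 boxes, or with boxes around the start, was not counted. Neither window holds any of 5 other motifs searched on both strands, with overlaps between motifs allowed. The TATA box was searched as TATAAA, which 13.6% of all promoters hold, and the AP-1 site as TGANTCA, held by 7.81%. The CCAAT box was searched by its own letters, held by 37.4%. The core recognised by ETS factors, CCGGAA, was held by 14.9%, and the site of TEAD factors, GGAATG, by 14.7%. Another Fbln1 promoter window, from base 85205699 to 85205998, held none of the 6 motifs. It overlaps most of the Fbln1 window shown and ends inside the first GC box of that window. Its lack of a GC box therefore reflects where the window was cut.

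The members moved in opposite directions. In cells with imatinib at 96 h, Fn1 was 2.05-fold lower and Fbln2 2.94-fold lower than in vehicle, while Mfap5 was 4.08-fold higher and Lox 1.83-fold higher. Fbln1, Mfap2 and Loxl1 did not pass the test, and Fbln5 and Eln were detected on 0 of 12 arrays. Values below are log2 normalized intensities, and a gene is represented by its probe with the highest mean among those detected (detection p under 0.05) on at least 3 of 12 arrays. That filter kept 17 of the 22 probes and 7 of the 9 genes. A change was called in limma at a Benjamini-Hochberg adjusted p under 0.05 over all 18897 kept probes. In these bulk samples fewer cells of a type and less RNA per cell cannot be told apart. The adipocyte markers with a kept probe, Adipoq and Lpl (2 of the 4 in their list with any probe), moved with these groups: their summed intensity lay at 4008 to 4587 in vehicle and at 6885 to 8376, 11424 to 13120 and 12609 to 13245 in the imatinib groups labelled 32 h, 64 h and 96 h. Their part in the members' changes was not tested.

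**Figure D1:**
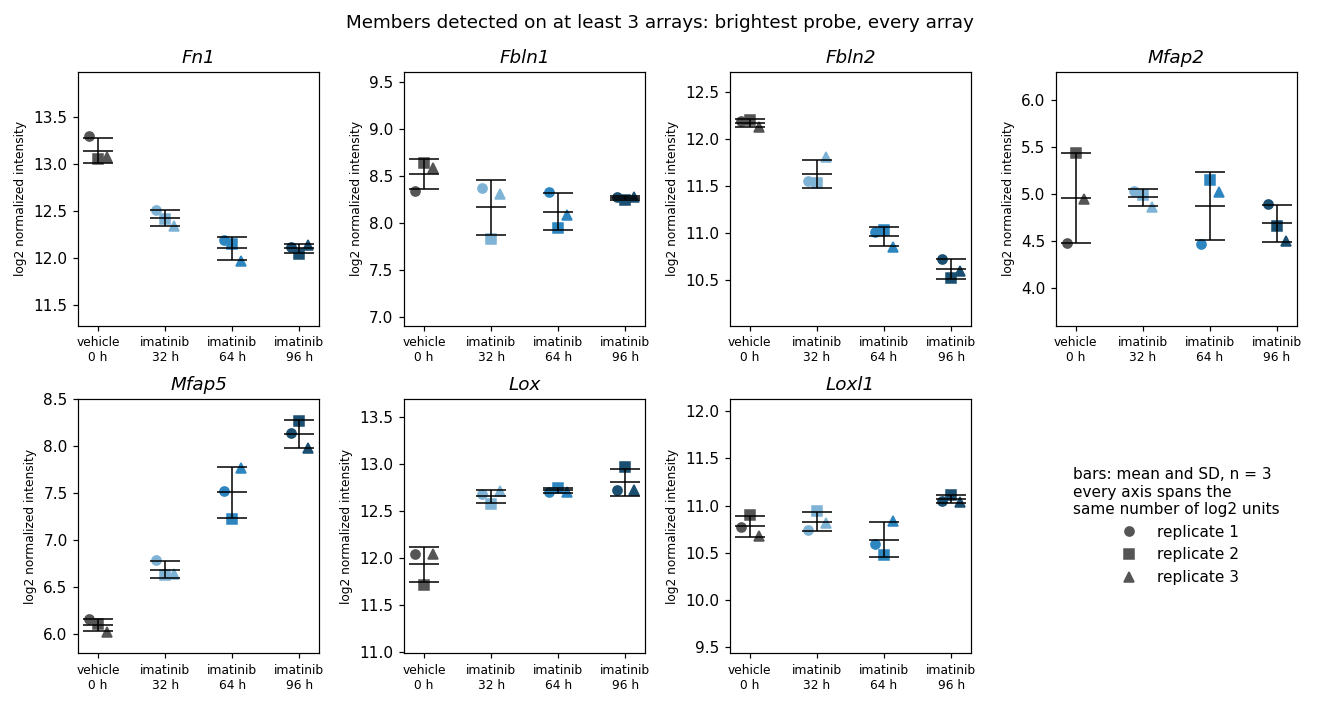
Log2 normalized intensity (vertical axis, the same span in every panel) of the brightest probe of the 7 members detected on at least 3 arrays, in vehicle and at 32 h, 64 h and 96 h of imatinib; points are arrays and bars the mean and SD of 3. Fn1 and Fbln2 lie lower in all 3 imatinib groups than in vehicle, Mfap5 lies higher at each later labelled time, and Lox is higher in all 3 imatinib groups than in vehicle.

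Fn1 (chromosome 1, 71585473 to 71653280, GRCm38.p6) encodes fibronectin, the ligand of integrin alpha5beta1 and the first fibrillar matrix that stromal cells assemble. Its brightest probe read 13.29, 13.05 and 13.07 in the 3 vehicle replicates and 12.51, 12.42 and 12.35 at 32 h. It read 12.20, 12.15 and 11.97 at 64 h and 12.12, 12.05 and 12.14 at 96 h. Every vehicle array lay above every imatinib array, and the 64 h and 96 h values overlapped. Against vehicle, the log2 difference was -0.71 ± 0.12 (SE, n = 3 per group; limma adjusted p = 0.00279) at 32 h, -1.03 ± 0.12 (adjusted p = 3.09e-05) at 64 h and -1.04 ± 0.12 (adjusted p = 1.98e-05) at 96 h. All 3 share the vehicle arrays. The 64 h group was 0.32 below the 32 h group (log2 -0.32, 95% interval -0.57 to -0.07), with the groups apart but the limma adjusted p at 0.278. Between 96 h and 64 h the limma difference was close to 0 (adjusted p = 0.997).

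Fn1 had 4 probes, and 3 of them fell between vehicle and 96 h. ILMN_2646618 averaged 9.40 ± 0.07 (SD, n = 3) in vehicle and 8.27 ± 0.09 at 96 h, a limma log2 difference of -1.13 ± 0.14 (SE; adjusted p = 4.91e-05). ILMN_2588227 averaged 11.61 ± 0.06 in vehicle, 10.68 ± 0.16 at 32 h, 10.37 ± 0.30 at 64 h and 10.85 ± 0.09 at 96 h. This probe was lowest at 64 h, and its 96 h mean was 0.48 above the 64 h mean without passing the limma test (adjusted p = 0.214). The remaining, dim probe, ILMN_1260125, ranged from 5.17 to 6.39 over the 12 arrays and passed in none of the 6 comparisons (-0.15 ± 0.19 at 96 h against vehicle, limma adjusted p = 0.679).

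Fbln2 (chromosome 6, 91212460 to 91272540) encodes fibulin-2, which binds fibronectin, fibrillin and tropoelastin. Its brightest probe read 12.19, 12.20 and 12.12 in vehicle, 11.56, 11.53 and 11.80 at 32 h, 11.01, 11.03 and 10.85 at 64 h and 10.73, 10.52 and 10.60 at 96 h. The 4 groups did not overlap at any step, and the order of the labelled times was kept. Against vehicle the log2 difference was -0.54 ± 0.12 (SE; limma adjusted p = 0.0193) at 32 h, -1.21 ± 0.12 (adjusted p = 7.35e-06) at 64 h and -1.55 ± 0.12 (adjusted p = 3.11e-07) at 96 h. Within array label 2, 64 h was 1.59-fold below 32 h (-0.67 ± 0.12, limma adjusted p = 0.0116). The last step, from 64 h to 96 h, did not pass (-0.35 ± 0.12, adjusted p = 0.267).

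The calls of Fbln2 at 96 h and 64 h against vehicle held without any single array, and the early ones did not. At 32 h against vehicle the limma adjusted p rose to 0.0712 and 0.0800 without the first or the second 32 h array, and to 0.0662 and 0.0743 without the first or the second vehicle array. At 64 h against 32 h it rose to 0.0620 without the third 32 h array and to 0.0642 without the third 64 h array. Another Fbln2 probe, ILMN_3132949, averaged 9.08 ± 0.16 (SD, n = 3) in vehicle, 8.46 ± 0.30 at 32 h, 7.57 ± 0.17 at 64 h and 7.62 ± 0.32 at 96 h. It was 0.62 below vehicle at 32 h without passing (limma adjusted p = 0.0763) and passed at 64 h (-1.51, adjusted p = 5.13e-05) and 96 h (-1.46 ± 0.18, adjusted p = 4.71e-05). The third, ILMN_2626153, was dim, with a log2 difference of -0.99 ± 0.20 at 96 h against vehicle (limma adjusted p = 0.00332), and was detected on 3 of 3 vehicle arrays and 1 of 3 at 96 h.

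Fbln1 (chromosome 15, 85205949 to 85286294) encodes fibulin-1, a calcium-binding matrix glycoprotein that also binds fibronectin. Its brightest probe read 8.34, 8.64 and 8.59 in vehicle, 8.37, 7.83 and 8.30 at 32 h, 8.33, 7.94 and 8.08 at 64 h and 8.27, 8.25 and 8.28 at 96 h. The 96 h and 64 h arrays all lay below the vehicle arrays, by small margins. The differences against vehicle were -0.36 ± 0.15 at 32 h, -0.40 ± 0.15 at 64 h and -0.26 ± 0.15 at 96 h (SE), with limma adjusted p of 0.268, 0.110 and 0.328. The 95% interval at 96 h ran from -0.59 to 0.07. All 5 Fbln1 probes were kept, 4 of the 5 had a difference below 0 at 96 h, and none passed; the other 4 differences ran from -0.31 to 0.01. Fbln5 (chromosome 12, 101746565 to 101819119) encodes fibulin-5, which is needed for elastic fibre assembly in the mouse. Its 1 probe was not well above background on any array: its lowest detection p was 0.0694 and its log2 values ran from 4.21 to 4.76, so no fold change is given.

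Mfap5 (chromosome 6, 122513584 to 122529290) encodes microfibril-associated glycoprotein 2 (MAGP-2), an integrin-binding partner of fibrillin. Its single probe read 6.16, 6.12 and 6.03 in vehicle, 6.79, 6.63 and 6.64 at 32 h, 7.53, 7.23 and 7.77 at 64 h and 8.14, 8.27 and 7.98 at 96 h. No 2 groups overlapped, and each later labelled time was higher than the one before. Against vehicle the log2 difference was 0.59 ± 0.14 (SE; limma adjusted p = 0.0294) at 32 h, 1.41 ± 0.14 (adjusted p = 8.05e-06) at 64 h and 2.03 ± 0.14 (adjusted p = 1.04e-07) at 96 h. Within array label 2, 64 h was 1.77-fold above 32 h (0.82 ± 0.14, adjusted p = 0.00868). From 64 h to 96 h the mean was 0.62 ± 0.14 higher, short of the threshold (adjusted p = 0.0841).

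The Mfap5 probe was dim in vehicle, and its fold depends on the background correction. Without that correction the log2 difference at 96 h against vehicle was 1.16 in place of 2.03, still called, and that at 32 h was 0.27 (limma adjusted p = 0.0579). The differences at 64 h against vehicle, 64 h against 32 h and 96 h against 32 h were then 0.74, 0.47 and 0.90, all still called. The 32 h call was also lost without any 1 of its 6 arrays, with limma adjusted p of 0.105, 0.0668 and 0.0727 for the 3 arrays at 32 h and 0.0678, 0.0866 and 0.106 for the 3 vehicle arrays. Mfap2 (chromosome 4, 141010424 to 141015976) encodes the related MAGP-1. Of its 3 probes, 2 were detected on 0 of 12 arrays, and the third read 4.48, 5.44 and 4.95 in vehicle and 4.90, 4.66 and 4.50 at 96 h. These values overlapped and sat at the detection limit, with 2 of 3 vehicle arrays and 1 of 3 arrays at 96 h detected. The limma difference was -0.27 ± 0.22 (95% interval -0.73 to 0.20, adjusted p = 0.495). Eln (chromosome 5, 134702595 to 134747368) encodes elastin, and both its probes were not well above background on any array, with log2 values from 4.28 to 4.54 and from 4.31 to 4.81 and lowest detection p of 0.201 and 0.0556.

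Lox (chromosome 18, 52516060 to 52529867) encodes lysyl oxidase, the copper enzyme that oxidises lysines of collagen and elastin. Its single probe read 12.04, 11.71 and 12.04 in vehicle and 12.68, 12.58 and 12.71 at 32 h. It read 12.71, 12.75 and 12.71 at 64 h and 12.72, 12.97 and 12.72 at 96 h. All 9 imatinib arrays lay above the 3 vehicle arrays. Lox was called at each time against vehicle, by 0.73 ± 0.13 (SE; limma adjusted p = 0.00402), 0.79 ± 0.13 (adjusted p = 0.000638) and 0.87 ± 0.13 (adjusted p = 0.000186). Its means at 32 h, 64 h and 96 h did not separate: 64 h against 32 h gave 0.06 ± 0.13 (interval -0.20 to 0.33, limma adjusted p = 0.894) and 96 h against 64 h gave 0.08 (adjusted p = 0.849).

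Loxl1 (chromosome 9, 58287723 to 58313212) encodes lysyl oxidase-like 1, the family member tied to elastin upkeep in the mouse. Its brightest probe read 10.77, 10.90 and 10.67 in vehicle, 10.74, 10.94 and 10.81 at 32 h, 10.59, 10.47 and 10.84 at 64 h and 11.05, 11.11 and 11.04 at 96 h. The 96 h arrays were the highest and overlapped no other group. The differences of 96 h were 0.29 ± 0.12 against vehicle (95% interval 0.02 to 0.55, limma adjusted p = 0.156), 0.24 against 32 h (adjusted p = 0.340) and 0.43 ± 0.12 against 64 h (adjusted p = 0.186). The second Loxl1 probe, ILMN_1257592, was detected on 0, 1, 2 and 1 of 3 arrays in the order of the labelled times.

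**Figure D2:**
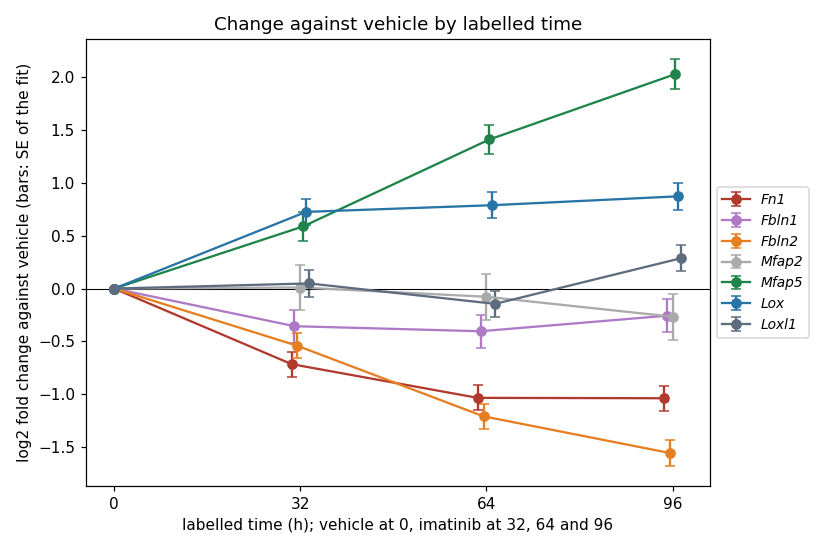
Log2 fold change against vehicle (vertical axis; bars are SE of the fit) by labelled time in hours (horizontal axis) for the 7 detected members. Fbln2 and Mfap5 lie further from 0 at each later labelled time, at -1.55 and 2.03 at 96 h, while Lox stands at 0.73 already at 32 h and Fn1 at -1.03 at 64 h.

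Across the comparison within array label 1, vehicle with 96 h, 2 of the 7 tested members rose and 2 fell, where 14.9% of all 10211 tested genes were called (7.51% higher, 7.37% lower). The members' median log2 difference was -0.26 and that of all genes 0.00, while the median absolute difference was 0.87 for members and 0.19 for all genes. The groups were apart for 6 of the 7 members, against 33.3% of all genes. By probe, 8 of the 17 kept members' probes were called, 2 higher and 6 lower, against 13.3% of all probes.

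Within array label 2, 64 h against 32 h, Mfap5 rose and Fbln2 fell, 2 of 7 members where 1.23% of all genes were called (0.656% higher, 0.578% lower). The median of the members was -0.09. With only those 6 arrays in the limma fit, neither passed, at adjusted p of 0.0524 for Mfap5 and 0.0698 for Fbln2; over all probes, 98 were then called in place of 191. Along the principal component that carried 7.07% of the variance, the third 32 h array and the third 64 h array stood at opposite ends. Without both, Fbln2 had an adjusted p of 0.176 and Mfap5 a log2 difference of 0.67 with an adjusted p of 0.130.

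**Figure D3:**
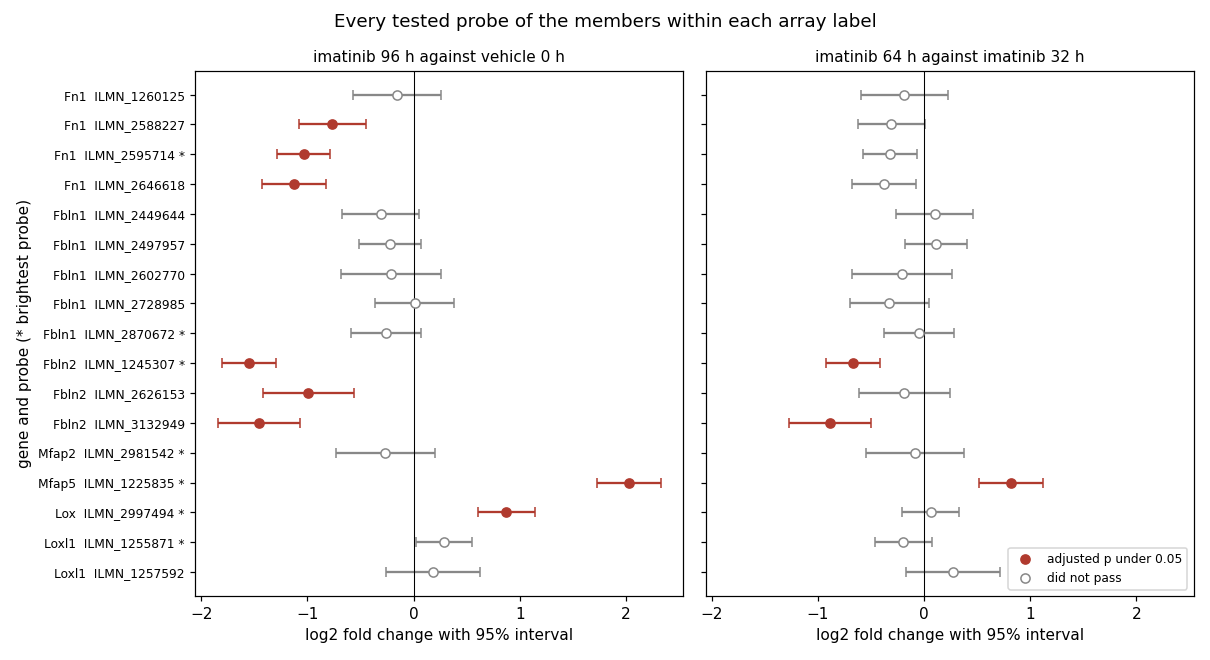
Log2 fold change with its 95% interval (horizontal axis) for every kept probe of the members, at 96 h against vehicle and at 64 h against 32 h; filled points passed an adjusted p under 0.05, open points did not, and asterisks mark the brightest probe of a gene. At 96 h the 3 Fbln2 probes and 3 of the 4 Fn1 probes lie below 0 and passed, while the 5 Fbln1 probes did not pass.

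The remaining comparisons cross the array labels. Along the principal component that carried 10.5% of the variance, the label 1 arrays lay at 5.17 to 17.15. All label 2 arrays lay at -17.19 to -5.32 on it, and label and group cannot be told apart in this split. At 32 h against vehicle, 2 members rose (Mfap5, Lox) and 2 fell (Fn1, Fbln2) where 4.16% of all genes were called (2.09% higher, 2.08% lower), with a member median of 0.01. At 64 h against vehicle the same 4 genes were called in the same directions where 12.4% of all genes were (6.33% higher, 6.08% lower), with a member median of -0.14. At 96 h against 32 h, Fbln2 fell 2.02-fold (-1.01 ± 0.12, limma adjusted p = 9.21e-05) and Mfap5 rose 2.71-fold (1.44 ± 0.14, adjusted p = 1.71e-05), where 5.27% of all genes were called (2.81% higher, 2.46% lower). At 96 h against 64 h, limma called 0 of the 7 members, with 0.255% of all genes called, and 3 members, Fbln2, Mfap5 and Loxl1, had an unadjusted p under 0.05, as had 1121 of all 10211 genes. No tool other than limma was run. Over the 4 groups together, a limma F test gave adjusted p of 5.15e-07 for Mfap5, 1.31e-06 for Fbln2, 4.82e-05 for Fn1 and 0.000575 for Lox. It gave 0.128 for Loxl1, 0.257 for Fbln1 and 0.735 for Mfap2, and 1325 of all 10211 genes passed it.

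Genes outside the set whose profile over the 12 arrays was most like a member's are given as a description only, since the 12 arrays form 4 groups of 3 and any gene that steps between groups scores high. Among 9894 genes compared, Pearson's r with Fn1 was highest for Col2a1 (0.980), the chain of cartilage collagen, Ank (0.980), a pyrophosphate transporter, and Cd9 (0.978), a tetraspanin. Fbln2 was most like Col18a1 (0.987), a basement membrane collagen, and Chst1 (0.986), a carbohydrate sulfotransferase. Mfap5 was most like Map4k4 (0.988), a kinase, Vegfc (0.984), a lymphatic growth factor, and Slc25a5 (0.982), a mitochondrial ADP/ATP carrier. Lox was most like Hspa1b (0.971), a heat shock protein, Pim3 (0.958), a kinase, and Ccdc80 (0.956), a matrix protein. For the members that did not pass the F test, the highest r was 0.928 for Fbln1 (Ppan), 0.884 for Mfap2 (Tbx3) and 0.879 for Loxl1 (Dyrk1b).

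Related genes outside the set were read from a list of 22 elastic fibre and crosslinking genes, of which 19 had a named probe and 14 were tested. At 96 h against vehicle, 1 of the 14 rose and 7 fell, with a median of -0.51, where 14.9% of all genes were called and their median was 0.00. Adamtsl4, a microfibril-binding ADAMTS-like protein, fell by 1.30 ± 0.12 on the log2 scale (SE; limma adjusted p = 2.02e-06), and Ltbp1, which tethers latent TGF-beta to fibrillin, fell by 1.82 ± 0.18 (adjusted p = 4.60e-06). Emilin2, an elastin-interface glycoprotein, changed by -1.14 ± 0.16 (limma adjusted p = 0.000122) and Ltbp3, another latent TGF-beta binding protein, by -0.76 ± 0.14 (adjusted p = 0.00150). The lysyl oxidase relatives Loxl4 (-1.02 ± 0.14, limma adjusted p = 0.000154) and Loxl3 (-0.86 ± 0.19, adjusted p = 0.00616) fell where Lox rose; Loxl3 was detected on 2 of 3 arrays at 96 h. Without background correction these differences were -0.51 and -0.27, both still called. Of the 3 further Ltbp1 probes, 2 had the sign of the brightest, and the mean over its probes gave -0.63, still called; at 64 h and 32 h against vehicle that mean gave -0.76 and -0.49, also called.

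The gene of this list that rose was Mfap3, a microfibril-associated protein (0.48 ± 0.13, limma adjusted p = 0.0217), named here after its value was seen. Its call was lost without the second or the third 96 h array (adjusted p = 0.0838 and 0.0712) or the first vehicle array. The remaining gene that fell, Ltbp2, also named after its value was seen, was detected on 0 of 3 arrays at 96 h and was at least 1.30-fold lower (limma adjusted p = 0.0366). That call was lost without any 1 of the 6 arrays, at adjusted p from 0.0585 to 0.138, and under median scaling (0.0535), with no filter (0.0847), with an offset of 50 (0.0527) and with a replicate block (0.0504). Without background correction the difference was -0.17 (adjusted p = 0.0984), smaller than that bound. In the 64 h group 6 of the 14 were lower than in vehicle and 0 higher, where 12.4% of all genes were called, and 8 had an unadjusted p under 0.05, as had 2678 of all 10211 genes. Ltbp1 differed by -2.00 ± 0.18 (limma adjusted p = 2.98e-06) and Adamtsl4 by -0.85 ± 0.12 (adjusted p = 0.000208). In the 32 h group 2 of the 14 were lower than in vehicle, where 4.16% of all genes were called: Ltbp1 (-1.08 ± 0.18, limma adjusted p = 0.00316) and Ltbp3 (-0.54 ± 0.14, adjusted p = 0.0438). The Ltbp3 call there was lost without any 1 of its 6 arrays, at adjusted p from 0.0781 to 0.146. It was also lost under median scaling (limma adjusted p = 0.0561) and with no filter (0.0558). The same held without the first 64 h array (0.0563) or the third 96 h array (0.0562).

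Between the imatinib groups, 1 of the 14 was called at 64 h against 32 h, 4 at 96 h against 32 h and 0 at 96 h against 64 h, where 1.23%, 5.27% and 0.255% of all genes were called. At 64 h against 32 h, 0 of the 14 were called higher and 5 had an unadjusted p under 0.05, as had 1183 of all 10211 genes. In the 64 h group Ltbp1 was lower than in the 32 h group (-0.92 ± 0.18, limma adjusted p = 0.0207). That call was lost without any 1 of the 64 h arrays, at limma adjusted p of 0.0756, 0.0780 and 0.0676, and with the mean over the Ltbp1 probes (-0.27, adjusted p = 0.306). It was also lost with only the 6 arrays compared (limma adjusted p = 0.0928) and without the third arrays of both groups (0.112). In the 96 h group, compared with 32 h, Mfap3 was higher and 3 genes were lower, of which Adamtsl4 had the largest difference (-0.97 ± 0.12, limma adjusted p = 0.000138). The other 3 calls there, Mfap3 (limma adjusted p = 0.0182), Ltbp1 (0.0274) and Emilin2 (0.0495), depended on single arrays. Mfap3 was lost without the first or the third 32 h array or the second or the third 96 h array, at adjusted p of up to 0.0738. Ltbp1 was lost without the third 32 h array or the second or the third 96 h array, at up to 0.103. It was also lost with no filter (limma adjusted p = 0.0591) and with only the 6 arrays compared (0.0858). With the mean over the Ltbp1 probes that difference was -0.14 in place of -0.75 (adjusted p = 0.523), and 1 of its 3 other probes had the sign of the brightest. Emilin2 was lost without any 1 of 10 of the 12 arrays, at up to 0.185, and with a replicate block (0.0555). It was also lost under median scaling (limma adjusted p = 0.0572), with no filter (0.0812) and with only the 6 arrays compared (0.115). Between 96 h and 64 h, limma called 0 of the 14, and 2 had an unadjusted p under 0.05, as had 1121 of all 10211 genes.

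Of 12 genes for fibronectin binding and assembly, all had a probe and 9 were tested. At 96 h against vehicle 2 rose and 3 fell, with a median of -0.30, where 14.9% of all genes were called (7.51% higher, 7.37% lower). Itga5, the alpha subunit of the main fibronectin receptor, fell by 1.14 ± 0.12 on the log2 scale (SE; limma adjusted p = 1.09e-05), alongside its ligand gene Fn1; without background correction the difference was -0.62, still called. Its partner Itgb1 rose on its brightest probe (0.94 ± 0.20, limma adjusted p = 0.00410), but its other kept probe had the opposite sign, so its direction is uncertain; the mean over both probes gave 0.47 (adjusted p = 0.0439). Sdc2, a heparan sulfate proteoglycan of the cell surface, rose (0.68 ± 0.13, adjusted p = 0.00243), and Itgb5, a vitronectin receptor subunit, fell (-0.56 ± 0.13, adjusted p = 0.00841). Sdc4, a focal adhesion syndecan, was lower (-0.41 ± 0.12, limma adjusted p = 0.0336), a call lost without the second or the third 96 h array (0.106 and 0.0983) or the first or the third vehicle array (0.136 and 0.0884). The Sdc4 call was also lost under median scaling (limma adjusted p = 0.0540) and with only the 6 arrays compared (0.0692). In the 64 h group 3 of the 9 were called against vehicle, where 12.4% of all genes were. Sdc2 was higher (0.75 ± 0.13, limma adjusted p = 0.00141), and Itga5 (-0.53 ± 0.12, adjusted p = 0.0103) and Itgb5 (-0.58 ± 0.13, adjusted p = 0.00919) were lower. The Itga5 call there had a limma adjusted p of 0.0517 without the second vehicle array. At 96 h against 32 h Itga5 was the 1 gene of the 9 called (-0.71 ± 0.12, limma adjusted p = 0.00309), where 5.27% of all genes were. Without background correction the Itga5 differences were -0.32 at 64 h against vehicle and -0.36 at 96 h against 32 h, both still called. In the other 3 comparisons limma called 0 of the 9, where it called 4.16%, 1.23% and 0.255% of all genes. At 32 h against vehicle, 7 of the 9 had an unadjusted limma p under 0.05, as had 1698 of all 10211 genes. At 64 h against 32 h, 3 of the 9 did, as did 1183 of all 10211 genes. Between 96 h and 64 h, 3 of the 9 did, as did 1121 of all 10211 genes.

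**Figure D4:**
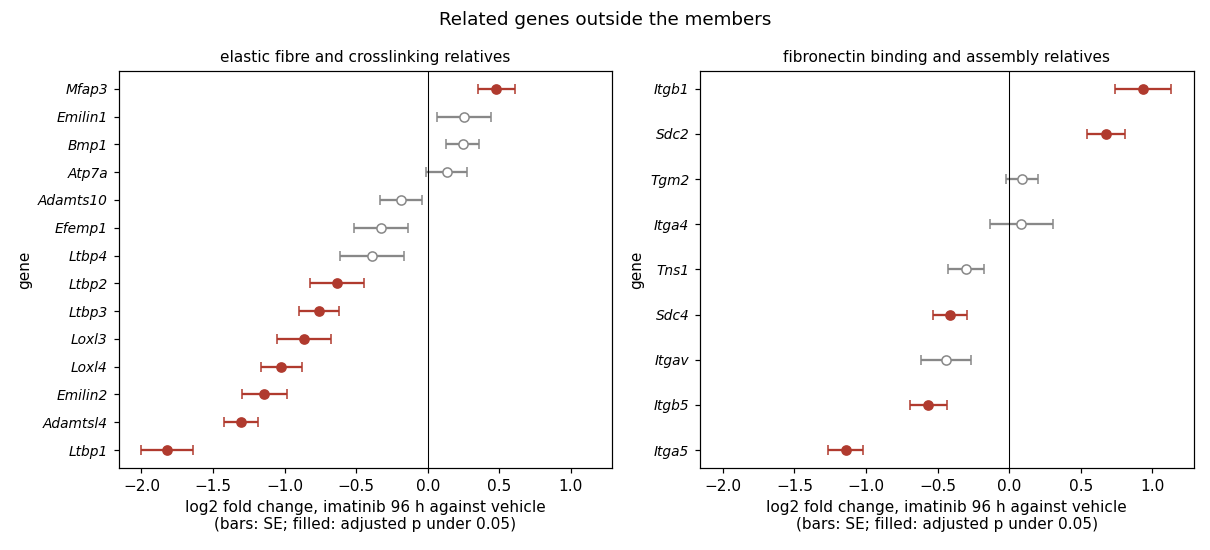
Log2 fold change at 96 h against vehicle (horizontal axis) for the 14 tested elastic fibre and crosslinking relatives and the 9 tested fibronectin binding genes. Bars are SE, and filled points passed an adjusted p under 0.05. Ltbp1, Adamtsl4 and Emilin2 lie furthest below 0 in the first list and Itga5 in the second.

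The arrays were alike in depth: their median signal lay between 104 and 112 and 35.7% to 38.3% of probes were detected. Replicates correlated at 0.988 to 0.991. Of 10 stromal markers 9 were kept (all but Thy1), and their summed intensity lay at 21424 to 23379 in vehicle and 34938 to 35589 at 96 h. Of these 9, Cxcl12 and Itgb1 rose and Cd44, Vim and Eng fell in limma on their brightest probes. The other kept Itgb1 probe had the opposite sign, so the direction of Itgb1 is uncertain. The summed myeloid markers (4 of 5 kept) lay at 165 to 211 in vehicle and 296 to 346 at 96 h, with Lyz2 higher, Cd14 lower and a median log2 difference of -0.01; 3 of the 4 were detected on every vehicle array and 1 on every 96 h array. The endothelial markers (2 of 5 kept) summed to 41.3 to 68.9 over all arrays. The smooth muscle markers (4 of 5 kept, Myh11 not) had 0 calls in limma at 96 h against vehicle, and 1 of the 5 B lymphoid (3 with a probe) and 2 of the 5 epithelial markers were kept. The part of the myeloid signal in the members' changes was not tested.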

How the data were processed

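Expression was measured on Illumina bead arrays with biotin-labelled cRNA, 1 array per sample and 12 in all. The deposited tables held, per probe, a non-normalized signal intensity and a detection p-value, per the file headers. A second deposited table held the authors' normalized intensity. The submitters' processing notes name limma, with no version or settings. On the log2 scale, no value in it was further than 0.0193 from its counterpart here.

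From the deposited intensities, background was corrected by normexp fitted through the detection p-values (offset 16), followed by quantile normalization and log2. Probes with a detection p under 0.05 on at least 3 of 12 arrays were kept, 18897 of 45281. A linear model with 4 group means over all 12 arrays was fitted in limma 3.58.1 (R 4.3.3; 8 residual degrees of freedom), with two-sided moderated tests and Benjamini-Hochberg adjustment over all kept probes, for 6 comparisons. The steps were tested on simulated data. At 96 h against vehicle, 32% of simulated 1.5-fold changes and 92% of 2-fold changes were recovered. At 64 h against 32 h these shares were 40% and 94%, so small changes can be missed. Each gene was represented by its kept probe of highest mean intensity. The number of arrays limits the precision, with a median standard error of 0.147 (log2).

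Of the probes, 34885 had 1 gene symbol, 18 had several and 10378 had none, from the platform annotation. Gene positions and promoters came from RefSeq (GRCm38.p6). The genes named are all members with every probe, up to 6 called genes of each of the 2 lists of relatives per comparison with the smallest p, and, of the 3 genes most like each member, those printed, 1 for a member that did not pass the F test; 1 gene is not reported here. The members, lists and tests were chosen with earlier results of these data known.

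Alternatives covered background correction, offset, scaling, filter, the deposited normalized intensities, probe averaging, variance model, the arrays in the fit, a replicate block and each array left out. The labels number the replicates 1 to 3 in every group. Deviations of same-numbered samples from their group means correlated at -0.02 to 0.05, with 0 of 18 pairs over 0.1, so the numbers were not taken to pair samples.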

Additional observations from a re-analysis of the deposited data

How the results depend on the processing

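Over 24 alternatives, the members' log2 differences stayed on their side of the threshold in 938 values, lost the call in 18 and gained it in 18. The sign changed in 24 of these values, all of them differences called neither here nor under the alternative and in 0 called ones. The 938 values include differences far from the threshold and settings that left out only an array outside the groups compared. They are thus no measure of how firm the calls are. At 32 h against vehicle, the calls of Fbln2 and Mfap5 were lost in 5 and 7 of 23 alternatives. The counts of members called at 96 h against vehicle, 64 h against vehicle and 96 h against 32 h (4, 4 and 2) stayed at these values whenever a single array was left out, and reached at most 5, 5 and 3 under the other alternatives, through Loxl1, Fbln1 and Fn1. At 32 h against vehicle the count of 4 ranged from 2 to 4 when single arrays were left out. At 64 h against 32 h the count of 2 ranged from 1 to 2 when single arrays were left out, and was 0 with only the 6 arrays compared and 0 without the third arrays of both groups. At 96 h against 64 h the count of 0 became 3 without background correction, 2 with an offset of 50, 1 with the strict filter (detection p under 0.01) and 2 with trended, robust variances. Over all probes the calls in that comparison went from 52 to 228, 176, 115 and 205 under these settings. Calls gained there were Mfap5, Loxl1 and Fbln2; Fn1 was gained at 64 h against 32 h, with an adjusted p in limma of 0.0392 without background correction. The cause of these changes was not tested. The settings that leave arrays out also have a smaller number of arrays. The fit with a replicate block changed no call of a member, with counts of 4, 2, 4, 4, 0 and 2 in the order 96 h, 64 h against 32 h, 32 h, 64 h, 96 h against 64 h and 96 h against 32 h. Normalizing each array label on its own gave values only within a label, and Mfap2 had none under the strict filter. Of the related genes' values, 3085 stayed on their side of the threshold, 65 lost the call and 64 gained it; the sign changed in 67, none called. The block ended 2 of their calls, Emilin2 at 96 h against 32 h and Ltbp2 at 96 h against vehicle. Signal over background limits Mfap2, Eln and Fbln5, and the dim second probes.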
